A study of Mus musculus with 98 samples.

Results

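The structures described here are short 3' overhangs found far from a RAG break at Jk1 of the mouse immunoglobulin kappa locus (gene Igkj1). They are called far inside Jk1 below, which names the break site and does not place the ends within the gene segment. They are double-strand break ends in which the 5'-ending strand lacked at least 20 nt while the 3'-ending strand extended 1 to 9 nt beyond it. Across the 5 tables for Jk1 the members came to 449 of the 2039 distinct end structures, and the 17 tables of the series held 13564 entries in all. The members were chosen by measured values, namely the position and the overhang of each structure, so those limits are a description and not a finding. Loss is counted from position 2, the lowest position in the tables for RAG breaks. The tables neither define that origin nor say whether these are coding or signal ends. If the origin lies elsewhere, each loss changes by the same amount.

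The study used HCoDES (hairpin capture of DNA end structures) on Abelson-transformed mouse pre-B cells held in G1. A single-stranded DNA ligase joins the strands of a broken end, and after bisulfite treatment and PCR the reads show where each strand stopped. Every Jk1 line lacked DNA ligase IV (Lig4-/-), so no group here had intact end joining, and RAG had made the breaks in all of them. Lines A and B lacked only ligase IV, lines 5 and 8 also lacked the histone variant H2AX, and 1 further line B also lacked 53BP1. The titles give 48 h for 4 of the lines and no time for H2AX-deficient line 5. Titles of Lig4-/- line B include shNT, a tag left unexplained in the labels. H2AX-deficient line 8 was sequenced in run 2 and the other Jk1 lines in run 4. A 53BP1-deficient line C, used below only at a second break site, was in run 6. Its titles include shNT and give no time. Each table pools 3 libraries, so the line was the replicate, and the 53BP1-deficient genotype had 1 line at Jk1.

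Ligase IV seals breaks in non-homologous end joining, the pathway that completes V(D)J recombination, and without it RAG-made ends persist. H2AX becomes phosphorylated in the chromatin around a break, and 53BP1 is recruited there. Both are known for protecting unrepaired ends in G1 lymphocytes from resection, in which a nuclease removes one strand and leaves the other as an overhang. A short 3' overhang at a distant position is an end at which both strands have been shortened to nearly the same point.

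Reads at Jk1 numbered 315274 in Lig4-/- line A, 304805 in line B, 170853 in H2AX-deficient line 5, 157970 in line 8 and 258051 in the 53BP1-deficient line. Intervals below are exact Clopper-Pearson 95% intervals. They cover counting error only, because without molecular identifiers several PCR reads may stem from 1 molecule. The insert size listed for the libraries, with no stated unit, was 395 and 386 in the Lig4-/- lines, 278 and 264 in the H2AX-deficient lines and 248 in the 53BP1-deficient line. It moved with genotype, and its part in the differences below was not tested.

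Short 3' overhangs far inside Jk1 held a modest share of all reads. That share was 9.38% (9.28 to 9.49) in Lig4-/- line A, and line B had 20.1% (19.95 to 20.2). It was 18.9% (18.7 to 19.1) in H2AX-deficient line 5, 18.1% (17.9 to 18.3) in line 8 and 7.71% (7.61 to 7.82) in the 53BP1-deficient line. Both H2AX-deficient lines lay between the Lig4-/- lines, and the 53BP1-deficient line lay below all others. The H2AX-deficient mean was 18.5% ± 0.559 and the Lig4-/- mean 14.7% ± 7.57 (SD, n = 2 lines per genotype). The difference of 3.75 percentage points was not called, and the exact two-sided permutation test over lines gave p = 1. Without Lig4-/- line A it was -1.60 points, and without Lig4-/- line B it was 9.11 points. Each of these would be called, in opposite directions.

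A difference was called when every mutant line lay on the same side of every Lig4-/- line and each such pair of read counts passed Fisher's exact test, two-sided, at 0.05. Those p-values were adjusted by Benjamini-Hochberg over the 10 pairs of the 5 tables for each result. Fisher's test compares pools of reads and not conditions: 7 of 8 pairs of lines of the same genotype passed it too. Gaps between genotypes are therefore set beside gaps between lines. With 2 lines against 2 lines, or 1 against 2, the exact permutation test cannot give a p below 0.333. The 53BP1-deficient share of all reads met the call rule, at -7.03 points from the Lig4-/- mean, with the largest adjusted Fisher's exact p at 3.5e-112. Its distance from the nearer Lig4-/- line was 1.67 points, against 10.7 points between the Lig4-/- lines, and the exact permutation p was 0.667. That difference was -2.53 points and no longer called when only members with 40 nt or more lost were kept. It was -13.8 points with 10 nt or more lost and -11.02 with each structure counted once. It was -12.4 without Lig4-/- line A and -1.67 without line B. Removing the 10 leading structures of every table, none of them a member, gave -16.3 points. Removing the 10 most abundant members of each table, an alternative chosen after seeing the data, gave -5.32 points.

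The members were set against all far ends, those in which either strand had lost 20 nt or more. Far ends held 23.0% and 43.5% of reads in Lig4-/- lines A and B. They held 84.5% and 82.1% in H2AX-deficient lines 5 and 8 and 84.1% in the 53BP1-deficient line. Among far ends, short 3' overhangs were the largest class in both Lig4-/- lines and in none of the mutant lines.

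The members' share of far-end reads was 40.7% (40.4 to 41.1) in Lig4-/- line A, and 46.2% (45.9 to 46.4) for line B. It was 22.3% (22.1 to 22.6) in H2AX-deficient line 5, 22.03% (21.8 to 22.3) in line 8 and 9.17% (9.05 to 9.29) in the 53BP1-deficient line. All mutant lines lay below both Lig4-/- lines, without overlap. The H2AX-deficient mean of 22.2% ± 0.218 was lower than the Lig4-/- mean of 43.4% ± 3.83 (SD, n = 2 lines each), a difference of -21.3 points. Its smallest gap between lines, 18.4 points, exceeded the 5.41 points between the Lig4-/- lines, and the exact permutation p was 0.333. The 53BP1-deficient line lay -34.3 points from the Lig4-/- mean, with a smallest gap of 31.6 points and an exact permutation p of 0.333. Both differences were called. With each structure counted once, whatever its reads, the H2AX difference was -7.80 points and the 53BP1 difference -19.04 points. Fisher's exact test then compared numbers of structures, which are far fewer than reads and are not replicates of a genotype. The H2AX call was lost under it (largest adjusted Fisher's exact p = 0.389) and the 53BP1 call was kept. Neither outcome tests the genotypes.

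Against each other, the 53BP1-deficient line held a smaller member share of far ends than H2AX-deficient lines 5 and 8, by -13.2 and -12.9 points. Both pairs passed Fisher's exact test. The 2 H2AX-deficient lines differed by -0.31 points (adjusted Fisher's exact p = 0.0532), the single pair of the 40 tested that did not pass. With 1 line lacking 53BP1, the difference between the mutant genotypes rests on that line.

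**Figure D1:**
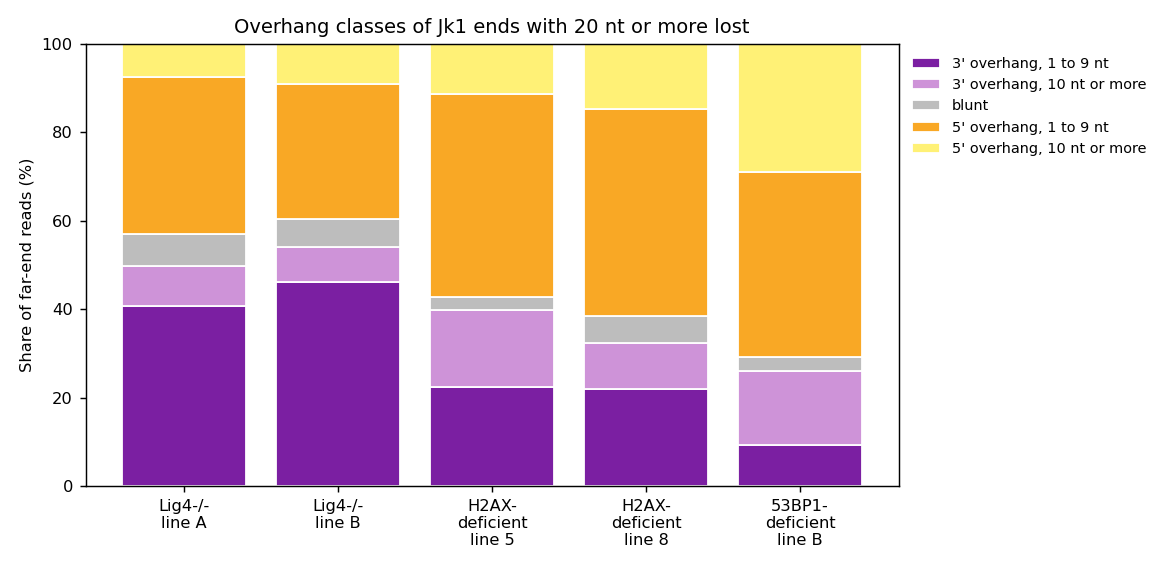
Stacked bars show, for each of the 5 lines, the percent of far-end reads in each overhang class. The lowest segment, short 3' overhangs, is 40.7% and 46.2% in the Lig4-/- lines, 22.3% and 22.03% in the H2AX-deficient lines and 9.17% in the 53BP1-deficient line.

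The remaining far ends fell into 4 classes, and their shares necessarily move against the members' share. Short 5' overhangs of 1 to 9 nt held 35.6% and 30.6% of far-end reads in Lig4-/- lines A and B, 45.9% and 46.8% in H2AX-deficient lines 5 and 8, and 41.8% in the 53BP1-deficient line. The 3 mutant lines lay above both Lig4-/- lines. 5' overhangs of 10 nt or more held 7.41% and 9.05%, then 11.4% and 14.7%, then 28.9% in the same order. Here too no mutant line overlapped a Lig4-/- line, and the 53BP1-deficient line stood highest. 3' overhangs of 10 nt or more held 8.96% and 8.00%, then 17.4% and 10.4%, then 16.8%. In the mutant lines long 3' overhangs thus held more of the far ends while short 3' overhangs held less. Blunt far ends held 7.25% and 6.17%, then 3.07% and 6.05%, then 3.31%, with every mutant line below the Lig4-/- lines, though line 8 by little.

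The direction of short overhangs was compared directly by taking far overhangs of 1 to 9 nt only. The 3' direction made up 53.3% (52.9 to 53.8) of these reads in Lig4-/- line A, and 60.1% (59.8 to 60.4) for line B. It made up 32.8% (32.5 to 33.0) in H2AX-deficient line 5, 31.99% (31.7 to 32.3) in line 8 and 18.0% (17.8 to 18.2) in the 53BP1-deficient line. In both Lig4-/- lines 3' overhangs outnumbered 5' overhangs, and in all 3 mutant lines 5' overhangs outnumbered 3' overhangs. The H2AX-deficient mean was 32.4% ± 0.541 and the Lig4-/- mean 56.7% ± 4.79 (SD, n = 2 lines each), a difference of -24.4 points with a smallest gap of 20.6 points. The 53BP1-deficient line differed by -38.7 points, with a smallest gap of 35.3 points. The Lig4-/- lines differed by 6.77 points. Both differences were called, with an exact permutation p of 0.333 each. Counting each structure once gave -9.25 points for H2AX and -17.4 points for 53BP1. Fisher's exact test on these numbers of structures lost the H2AX call (largest adjusted p = 0.175) and kept the 53BP1 call. Structures are not replicates, so neither outcome tests the genotypes. With the 10 leading structures of every table removed, none of them a member, the H2AX difference was -16.2 points. Without the 10 most abundant members of each table, an alternative chosen after seeing the data, it was -23.4 points.

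Short 3' overhangs nearer to the break gave the contrast within the same overhang class. Those with less than 20 nt lost held 46.4% and 34.5% of all reads in the Lig4-/- lines. They held 6.11% and 6.57% in the H2AX-deficient lines and 5.52% in the 53BP1-deficient line. Of all short 3' overhang reads, 16.8% and 36.8% lay far inside Jk1 in Lig4-/- lines A and B, against 75.5% and 73.4% in H2AX-deficient lines 5 and 8 and 58.3% in the 53BP1-deficient line. At the limit of the rule, structures with 20 to 24 nt lost held 1.49%, 2.29%, 0.751%, 0.0950% and 0.227% of reads in the order Lig4-/- A, B, H2AX-deficient 5, 8 and 53BP1-deficient. Those just outside, with 15 to 19 nt lost, held 2.35%, 2.81%, 0.422%, 0.154% and 0.0314%. Members with a 9-nt overhang held 0.190%, 0.0932%, 1.22%, 0.402% and 0.103%, and structures just outside with 10 nt held 0.168%, 0.196%, 1.39%, 0.354% and 0.488%.

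The distance at which the members lay was compared between genotypes. Over member reads, the median number of nt lost by the 5'-ending strand was 55 nt in Lig4-/- line A, and 89 nt for line B. It was 116 nt in H2AX-deficient line 5, 133 nt in line 8 and 123 nt in the 53BP1-deficient line. All mutant lines lay above both Lig4-/- lines, by 52.5 nt on average for H2AX and 51 nt for 53BP1. The smallest gaps, 27 and 34 nt, did not exceed the 34 nt between the Lig4-/- lines. Medians were given no Fisher's test, and the exact permutation p was 0.333 for H2AX and 0.667 for 53BP1. When only members with 40 nt or more lost were kept, the differences were -0.5 nt and -2 nt.

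The members were then described by distance. Members with 20 to 39 nt lost held 3.74% and 6.02% of all reads in Lig4-/- lines A and B, against 2.33% and 0.556% in H2AX-deficient lines 5 and 8 and 0.382% in the 53BP1-deficient line. In this interval all mutant lines lay below both Lig4-/- lines. Members with 120 to 139 nt lost held 0.702% and 1.78% in the Lig4-/- lines, 4.58% and 4.37% in the H2AX-deficient lines and 1.66% in the 53BP1-deficient line. Here the H2AX-deficient lines lay above both Lig4-/- lines, and the 53BP1-deficient line lay between them. The deepest interval counted, 140 to 159 nt, held 2.08% and 7.41% in the Lig4-/- lines. It held 4.15% and 7.81% in the H2AX-deficient lines and 2.62% in the 53BP1-deficient line, and the genotypes overlapped. The intervals of 20 nt were chosen after the values had been seen and were not tested. They stop at 159 nt. Ends of any overhang with more lost held 0.472% and 2.45% of all reads in Lig4-/- lines A and B. They held 4.55% and 4.33% in H2AX-deficient lines 5 and 8 and 6.84% in the 53BP1-deficient line. At most 1 member structure per line lay there.

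**Figure D2:**
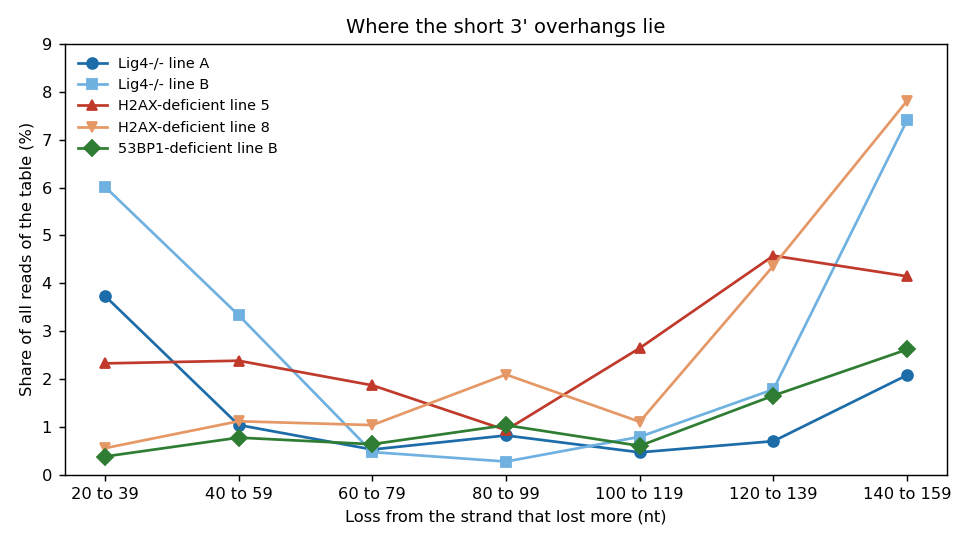
Lines join, for each of the 5 cell lines, the percent of all its reads held by short 3' overhangs in successive 20-nt intervals of loss. Compared across lines within an interval, Lig4-/- line B is highest at 20 to 39 nt with 6.02%, and the H2AX-deficient lines are highest at 120 to 139 nt with 4.58% and 4.37%. Lig4-/- line B and H2AX-deficient line 8 each have their own peak at 140 to 159 nt, with 7.41% and 7.81%.

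The direction of short overhangs also depended on the distance. At 20 to 39 nt lost, 3' overhangs were 64.2% and 71.7% of short overhang reads in the Lig4-/- lines, 34.9% and 23.7% in the H2AX-deficient lines and 27.3% in the 53BP1-deficient line. At 140 to 159 nt the values were 74.4% and 78.4%, then 34.1% and 41.2%, then 13.5%. In both of these intervals every mutant line lay below both Lig4-/- lines. Between them, at 120 to 139 nt, the values were 21.4% and 26.7% in the Lig4-/- lines, 21.9% and 21.6% in the H2AX-deficient lines and 14.8% in the 53BP1-deficient line, so that 5' overhangs prevailed in all 5 lines and the H2AX-deficient lines overlapped the Lig4-/- lines. At 60 to 79 nt both H2AX-deficient lines, at 50.7% and 57.5%, lay above the Lig4-/- lines at 38.7% and 33.8%. With each structure counted once, the 140 to 159 nt interval gave 38.2% and 52.9%, then 34.1% and 45.1%, then 31.5%, and the H2AX-deficient lines overlapped the Lig4-/- lines.

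**Figure D3:**
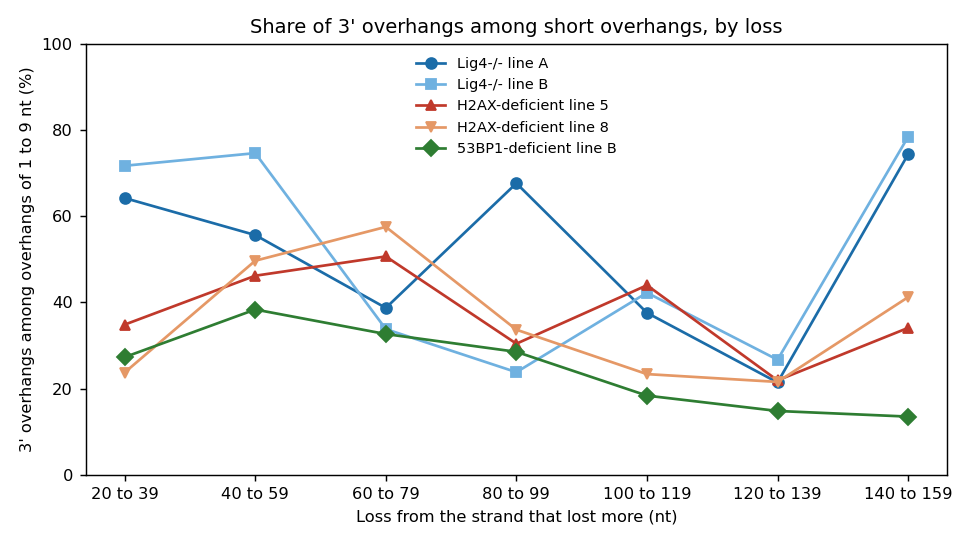
For each of the 5 cell lines, points give the percent of 3' overhangs among reads with overhangs of 1 to 9 nt, in 20-nt intervals of the loss from the strand that lost more. The Lig4-/- lines stand apart at 140 to 159 nt, at 74.4% and 78.4%, and meet the H2AX-deficient lines at 120 to 139 nt.

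Overhang lengths within the members were weighted to the short side. Overhangs of 1 to 4 nt held 68.6% and 69.8% of member reads in Lig4-/- lines A and B, 55.2% and 72.1% in H2AX-deficient lines 5 and 8 and 65.7% in the 53BP1-deficient line. The H2AX-deficient lines fell on either side of the Lig4-/- lines. Their mean differed by -5.59 points, which was not called, by 2.86 points without line 5 and by -14.05 points without line 8. Each of these would be called, in opposite directions. The 53BP1-deficient line met the call rule at -3.53 points (largest adjusted Fisher's exact p = 8.9e-12, exact permutation p = 0.333). With each structure counted once that difference was 5.75 points, and without the 10 most abundant members of each table it was 2.76 points, so its direction turned. It was -1.47 points and not called with 10 nt or more lost, -2.33 with 40 nt or more, and -6.41 when both strands had to lie far inside.

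A 1-nt overhang was the most common length in 4 of the 5 lines. It held 27.8% and 22.8% of member reads in the Lig4-/- lines, 21.2% in H2AX-deficient line 5 and 35.9% in the 53BP1-deficient line. In H2AX-deficient line 8 a 2-nt overhang led with 23.9%, against 22.5% for 1 nt. An overhang of 2 nt held 5.10% in the 53BP1-deficient line and 14.4% to 23.9% in the others. An overhang of 8 nt held 13.5% in H2AX-deficient line 5 and 1.79% to 5.22% in the others, so the lines lacking H2AX did not share a length profile. The median overhang was 4 nt in line 5 and 3 nt in each of the other lines.

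**Figure D4:**
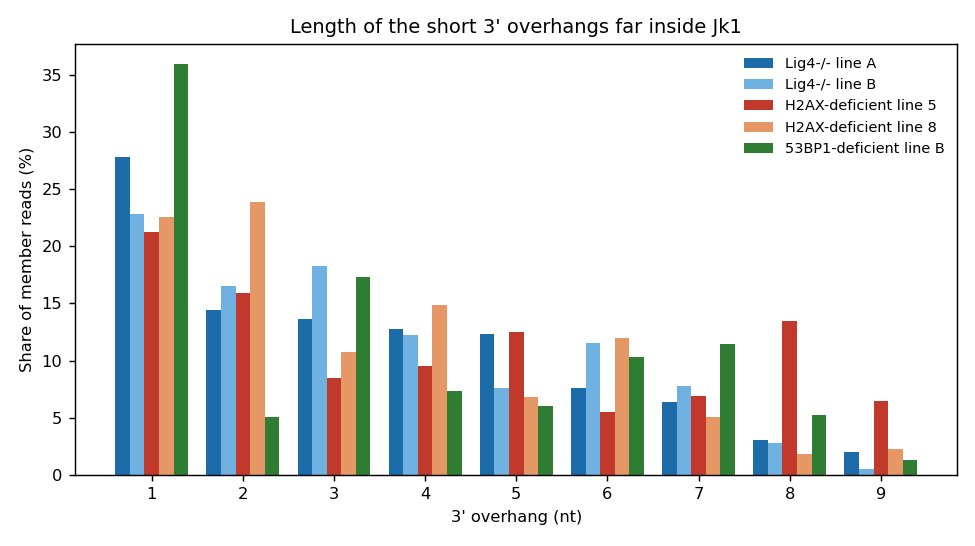
Bars give the percent of member reads at each 3' overhang length from 1 to 9 nt in the 5 lines. The 1-nt bar of the 53BP1-deficient line, 35.9%, is the highest, and H2AX-deficient line 5 stands out at 8 nt with 13.5%.

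Reads were spread over many structures in every line. The tables listed 179 and 207 members in Lig4-/- lines A and B, 165 and 150 in H2AX-deficient lines 5 and 8 and 174 in the 53BP1-deficient line. Members were 24.0% and 30.5% of all structures in the Lig4-/- lines, 24.1% and 25% in the H2AX-deficient lines and 16.3% in the 53BP1-deficient line. The most abundant member held between 3.62% and 6.23% of a line's member reads, and the 10 most abundant held between 26.9% and 35.8%. It took 28 members to reach 50% of member reads in Lig4-/- line A and 18 to 21 in the other lines. Between 68 and 105 members per line had 100 reads or more, and these held 92.2% to 97.4% of member reads. Members under 10 reads numbered 39 to 83 per line and held 0.362% to 1.18%.

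The same structures rarely recurred at high abundance. Of the 449 members, 213 were listed in 1 table, 114 in 2, 65 in 3, 46 in 4 and 11 in all 5. The tables list no structure with fewer than 2 reads, so an unlisted structure may still have been read once. Of the 308 members with 100 reads or more in at least 1 table, 215 reached that count in 1 table and none in all 5. The Lig4-/- lines listed 113 members in common, 63.1% of those of line A and 54.6% of those of line B. The H2AX-deficient lines had 42 in common, 25.5% of those of line 5 and 28.0% of those of line 8. Members listed in no other table held 14.2% and 9.70% of member reads in the Lig4-/- lines, 35.3% and 55.4% in the H2AX-deficient lines and 35.2% in the 53BP1-deficient line. The Lig4-/- tables were also the deepest, and the part of depth in this difference was not tested.

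**Figure D5:**
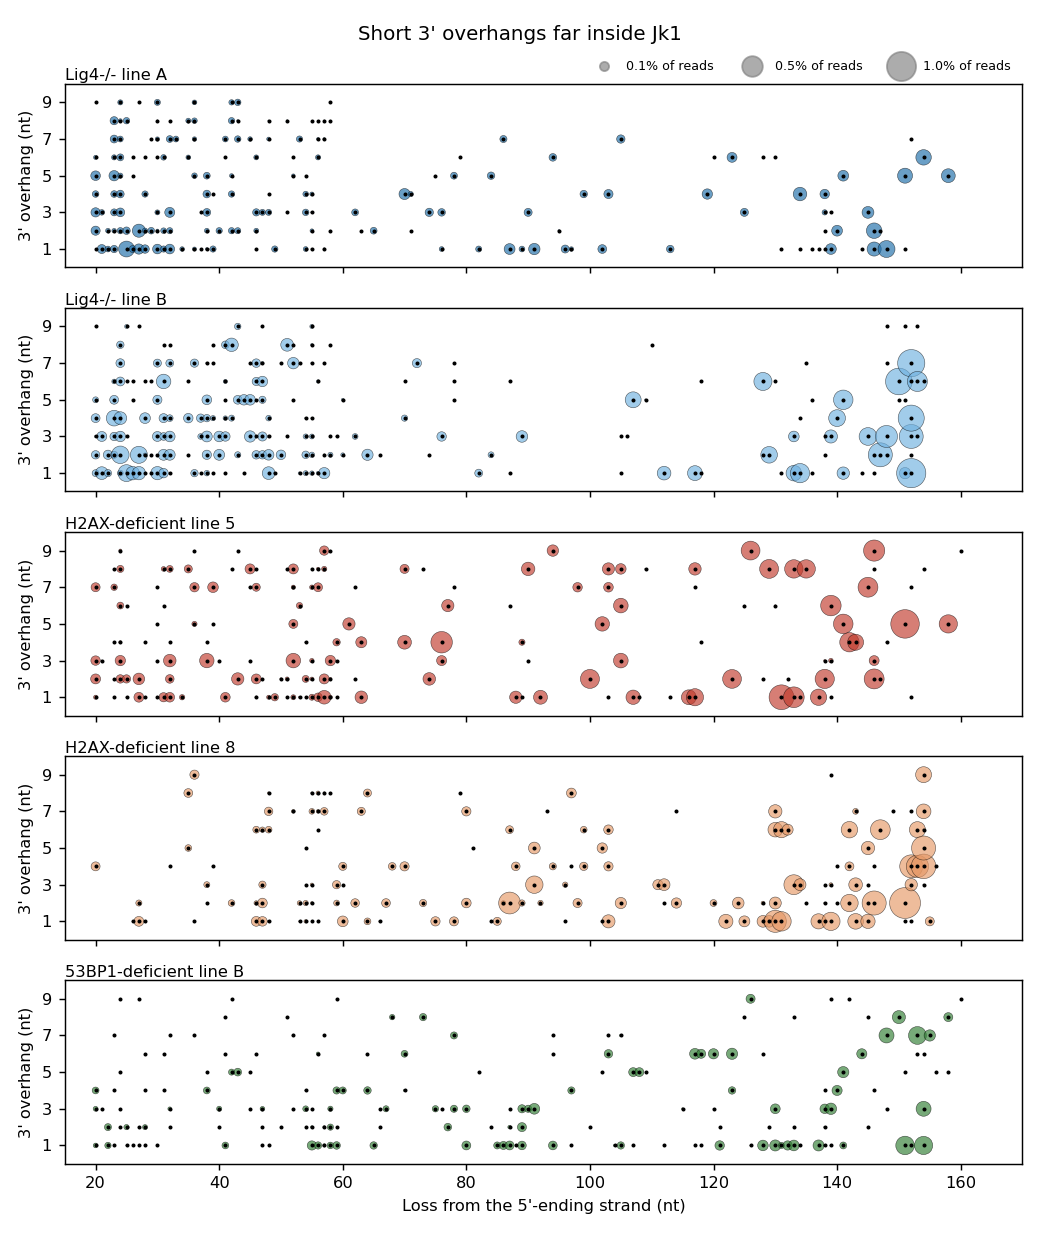
Each panel is 1 line, with the loss from the 5'-ending strand in nt on the x axis and the length of the 3' overhang in nt on the y axis. Black dots mark listed members and the area of a circle gives the share of all reads, on 1 scale in all panels. Abundant members beyond 140 nt appear in every line. Members at 20 to 39 nt held 3.74% and 6.02% of reads in the Lig4-/- lines and 2.33% in H2AX-deficient line 5. They held 0.556% in H2AX-deficient line 8 and 0.382% in the 53BP1-deficient line.

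Of the 15 places among the 3 leading members of each line, 7 went to members listed in that line alone. In Lig4-/- line B the 1-nt overhang with 152 nt lost held 1.006% of all reads (3067 reads), and it had 0 to 2 reads in each other line. In H2AX-deficient line 8 the 2-nt overhang with 151 nt lost held 1.13% (1780 reads) and was listed in no other table. In the 53BP1-deficient line the 1-nt overhangs with 151 and 154 nt lost held 0.405% and 0.393%. The first of these had 460 reads in Lig4-/- line B, and the second was listed nowhere else. The leading member of Lig4-/- line A, a 1-nt overhang with 148 nt lost at 0.340%, was likewise listed in that table alone. The same held for 4 further leading members: a 6-nt overhang with 150 nt lost at 0.837% in Lig4-/- line B, a 4-nt overhang with 76 nt lost at 0.545% in H2AX-deficient line 5, a 4-nt overhang with 154 nt lost at 0.712% in line 8 and a 7-nt overhang with 153 nt lost at 0.375% in the 53BP1-deficient line.

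Other leading members were shared by some lines across genotypes. The 2-nt overhang with 146 nt lost held 0.285% in Lig4-/- line A, 0.469% in H2AX-deficient line 5 and 0.686% in line 8. It had 2 reads in Lig4-/- line B and was unlisted in the 53BP1-deficient line. The 5-nt overhang with 151 nt lost led in H2AX-deficient line 5 with 0.962% and held 0.267% in Lig4-/- line A, but was unlisted in H2AX-deficient line 8. Sharing thus did not follow genotype for these structures.

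Of the 11 members listed in all 5 tables, the highest on average was the 1-nt overhang with 131 nt lost. It held 0.725% and 0.446% in H2AX-deficient lines 5 and 8 and 0.0446% in the 53BP1-deficient line, against 0.00349% and 0.000984% in Lig4-/- lines A and B. Every mutant line was above both Lig4-/- lines. The 2-nt overhang with 27 nt lost ran the other way, at 0.203% and 0.344% in the Lig4-/- lines, 0.159% and 0.0443% in the H2AX-deficient lines and 0.00310% in the 53BP1-deficient line. The 1-nt overhang with the same 5' end held 0.125% and 0.211%, then 0.115% and 0.115%, then 0.00155%. In both of these shallow members the 53BP1-deficient line was the lowest and the Lig4-/- lines the highest. The 4-nt overhang with 70 nt lost overlapped between H2AX-deficient and Lig4-/- lines, at 0.146% and 0.0466%, then 0.225% and 0.10%, with 0.00659% in the 53BP1-deficient line. The 2-nt overhang with 138 nt lost held 0.437% in H2AX-deficient line 5 and at most 0.00443% in each other line.

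Structures were counted as higher or lower when the lines of the genotypes did not overlap, among those with 10 reads or more over the tables compared. Against Lig4-/-, 17 of 331 members (5.14%) were higher in both H2AX-deficient lines, beside 7.09% of all 1157 structures at Jk1. Lower in both were 61 members (18.4%), beside 18.6% of all structures. Both shares were near those of all structures and are no result about the members. With a line left out fewer lines had to agree, so the counts rose for members and for all structures. Without H2AX-deficient line 5, 92 members (32.4%) were higher, beside 37.8% of all structures, and without line 8, 82 members (31.3%), beside 36.6%. Without Lig4-/- line B, 27 members (9.51%) were higher, beside 10.1%. Members lower numbered 113 (40.5%) without Lig4-/- line A, beside 32.1% of all structures, and 101 (35.6%) without line B, beside 35.3%.

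In the 53BP1-deficient line 61 of 259 members (23.6%) were higher than in both Lig4-/- lines, beside 48.8% of all 1201 structures. Lower were 81 members (31.3%), beside 22.7% of all structures. With Lig4-/- line A or B left out, 1 line stood against 1, so every structure compared counted as higher or lower. Those counts had to rise under that rule and are no result about the members. The filter summed reads over the tables compared. A structure listed only in the 53BP1-deficient line passed it through that line alone and had to count as higher. A structure listed in both Lig4-/- lines and not in the mutant line had to count as lower. The counts against both Lig4-/- lines describe 1 mutant line, were not tested and are no result about the members.

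The largest differences included shallow and deep members. The 1-nt overhang with 25 nt lost held 0.298% and 0.338% of reads in Lig4-/- lines A and B. It had 3 reads in H2AX-deficient line 5, none listed in line 8 and 5 in the 53BP1-deficient line, so it was lower in all mutant lines. The 3-nt overhang with 145 nt lost held 0.166% and 0.371% in the Lig4-/- lines and had 2 reads in H2AX-deficient line 8 and none listed in the other mutant lines. Among rises, the 1-nt overhang with 137 nt lost had 2 reads in Lig4-/- line A and none listed in line B. It held 0.315% and 0.273% in the H2AX-deficient lines and 0.145% in the 53BP1-deficient line.

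Other large differences rested on 1 Lig4-/- line. The 7-nt overhang with 152 nt lost held 0.872% in Lig4-/- line B and had 2 reads in line A. The 2-nt overhang with 147 nt lost held 0.679% in line B, and the 6-nt overhang with 128 nt lost 0.385%, again with 2 reads each in line A.

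Member ends gathered at some strand positions. By mean share of member reads over the 5 lines, the leading losses from the 5'-ending strand were 154, 152, 151, 146 and 153 nt. A loss of 154 nt held 10.8% of member reads in H2AX-deficient line 8, 8.53% in the 53BP1-deficient line and 3.01% in Lig4-/- line A, but 0.00490% and 0.00620% in Lig4-/- line B and H2AX-deficient line 5. A loss of 152 nt held 16.7% in Lig4-/- line B, 4.47% in H2AX-deficient line 8 and at most 0.0186% in the others. A loss of 151 nt was the most even of the 5, from 0.758% in Lig4-/- line B to 6.25% in H2AX-deficient line 8. The deep positions were thus used unevenly by lines of the same genotype.

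On the 3'-ending strand, a loss of 136 nt held 1.53% and 4.91% of member reads in the Lig4-/- lines, 6.51% and 3.64% in the H2AX-deficient lines and 7.47% in the 53BP1-deficient line. That position carried 7 different overhang lengths and led the 3'-strand positions by mean share. It was singled out after its values had been seen.

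The same rule applied to the RAG break at the chromosomal recombination substrate gives values for a second site. Among far ends there, short 3' overhangs held 32.5% and 37.3% of reads in Lig4-/- lines A and B, 32.7% and 32.5% in H2AX-deficient lines 5 and 8, and 12.4% and 31.9% in 53BP1-deficient lines B and C. The H2AX-deficient lines overlapped the Lig4-/- lines at the substrate and lay below them at Jk1. The 53BP1-deficient line B was the lowest at both sites, while 53BP1-deficient line C, whose Jk1 ends were not analysed here, held 31.9% at the substrate, above line B and just under the other lines. Of short far overhangs at the substrate, 56.3% and 55.6% were 3' in the Lig4-/- lines, 52.9% and 48.3% in the H2AX-deficient lines, and 24.6% and 70.1% in 53BP1-deficient lines B and C. Line C was sequenced in run 6 and line B in run 4, and only the titles of line C include shNT. Some sequences of line C were mixed with distal substrate PCR sequences, per the labels. The part of these in the contrast between lines B and C was not tested, nor was the difference between the sites.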

How the data were processed

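Per the labels, broken ends in genomic DNA were sealed by single-strand ligation, converted with bisulfite, amplified and sequenced on a MiSeq. The authors deposited 1 table per line and break, holding raw read counts per end structure with libraries pooled and not normalised. The position and overhang columns deposited beside the counts are other whole numbers, read here as nt. The sign of the overhang was taken from the KpnI control, whose main structure has the value 4 (KpnI leaves a 3' overhang). Aligner, filters and genome build: not given in the sources used here. No coordinates are printed. Symbols came from a RefSeq table of assembly GRCm38.p6, and no sequence is shown. A second Jk1 table of Lig4-/- line B held identical values and was not used.

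The software was scipy 1.17.1, numpy 2.4.6 and pandas 2.3.3 under Python 3.11.15, with matplotlib 3.10.9 for figures. Lines were averaged with equal weight. Share differences were tested by two-sided Fisher's exact tests on read counts between lines (40 tests, adjusted over 10 pairs for each of 4 results). Exact permutation over lines was also run. Where each structure was counted once, Fisher's test compared numbers of structures instead of reads. The structures named were the 3 most abundant in each line, the 5 most abundant of those listed in all 5 tables, the 3 largest rises and falls per comparison among structures whose lines did not overlap, and the 5 leading positions of the 5'-ending strand. The 3'-strand position was named outside this rule. The members and these lists were chosen with earlier results of these data known. Alternatives changed the position threshold, overhang range, strand, weight and fewest reads of structures, and left out abundant structures or lines. As a check of the arithmetic only, reads were redrawn from these same counts with the members' share set. It recovered the set share of all reads within 0.275 points and of far-end reads within 0.385 points. The draws held no PCR duplication and no spread between lines, so they do not measure how reliable the shares are. Separate cultures are not stated. The permutation p-values rest on these few lines only. Fisher's p-values reflect the counting of reads and measure no spread between lines or libraries.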

Additional observations from a re-analysis of the deposited data

How the results depend on the processing

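No paired analysis was possible because each table pools its libraries and the lines carry no shared replicate numbers. Over all alternatives, 99 values kept their direction and side of the threshold or moved little, 11 moved further, 10 reversed, and 4 became called and 4 lost their call without turning direction. Counting the reversed ones, 6 became called and 6 lost their call. The H2AX difference in the members' share of all reads was -2.34 points with 10 nt or more lost, 7.19 with 40 nt or more (then called), -2.74 with each structure counted once and -2.64 without the 10 most abundant structures. None of those 10 structures was a member, and without the 10 most abundant members the difference was 2.60. It ran from -1.60 to 9.11 with a line left out, called at both ends. The 53BP1 difference in that share was -2.53 with 40 nt or more lost, no longer called. Counting each structure once ended the H2AX calls for the share of far-end reads (-7.80) and for the 3' share of short far overhangs (-9.25). Fisher's test then compared numbers of structures, which are far fewer than reads and are not replicates. Neither a lost nor a kept call there tests the genotypes. The 53BP1 calls held for both shares under every alternative run. For overhangs of 1 to 4 nt, the H2AX difference was 3.36 with each structure counted once and -9.03 without the 10 most abundant members (called, an alternative chosen after seeing the data), and ran from -14.05 to 2.86 with a line left out. The 53BP1 difference was -1.47 with 10 nt or more lost, 5.75 with each structure counted once and 2.76 without the 10 most abundant members. The median position differed by 85 nt (H2AX) and 90 nt (53BP1) with 10 nt or more lost, and by -0.5 and -2 with 40 nt or more. For H2AX it was 31 with both strands far inside and 28.25 with each structure counted once. With a line left out, members higher in the H2AX-deficient lines numbered 21 to 92 (beside 10.1% to 37.8% of all structures). Members lower there numbered 68 to 113 (beside 28.6% to 35.3%). Members lower in the 53BP1-deficient line numbered 125 to 128 (beside 37% to 42.2%). In that last comparison 1 line stood against 1, so every structure had to count as higher or lower. The causes were not tested. Precision is limited by the number of lines, 2 or 1 per genotype.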
